A study of Mus musculus with 12 samples.

Results

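The first step of differentiation, from 0 to 36 h after withdrawal of estradiol (E2), was examined in wild-type (WT) mouse myeloid progenitors. Both WT libraries of 0 h were compared with both WT libraries of 36 h, so 4 of the 12 libraries of the series give the changes, and all 12 give the spread that the test uses. All genes listed at 1 FPKM or more in at least 2 of the 12 libraries were tested, which kept 11516 of 23309 genes. FPKM counts sequenced fragments per length of transcript and per size of library, so it is a level per length. The cells were CD117+ bone marrow progenitors of WT mice that carried a retroviral fusion of the estrogen receptor to HoxB8 (ER-HoxB8), which kept them immature as long as E2 was present, and they were grown with interleukin 3 throughout. The groups named WT_0h were sampled with E2 present and those named WT_36h and WT_96h after 36 and 96 h without it. Cells of HMGN1-OE mice, which carry a transgene of human HMGN1, were prepared and sampled in the same way and served here only as a second set of libraries. All groups carried ER-HoxB8, so none shows primary progenitors, and each genotype and time had 2 libraries. The study calls the pairs biological duplicates. The age of the mice and how many mice the cultures came from are not given in the sources used here. The p-values therefore rest only on the spread between these libraries, not between mice. That spread was pooled over genes of similar level, so a gene's own spread does not enter its p or SE.

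HoxB8 is a homeobox transcription factor that blocks myeloid differentiation and sustains growth. When the fusion protein loses its ligand, progenitors leave this state together and mature into neutrophils and related cells. Granulocyte precursors make their granule proteins in waves. Primary granules, with myeloperoxidase and the neutrophil serine proteases, are filled in promyelocytes, and secondary and tertiary granules, with lactoferrin, cathelicidin and neutrophilic granule protein, are filled in later precursors. Basophils and mast cells arise from neighbouring progenitors and are marked by the high-affinity IgE receptor, carboxypeptidase A3 and the enzyme that makes histamine.

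The levels were scaled by the submitters to spike-in RNAs added per counted cell, so a level is meant per cell, and in these bulk cultures fewer cells of a type and less RNA per cell cannot be told apart. The depth of the libraries is unknown, and the values give no counting error. The sum of FPKM was 680258 and 1268121 in the first and second 0 h libraries and 1229588 and 1442573 in those of 36 h. Over all tested genes the median change from 0 to 36 h was 0.47 on the log2(FPKM + 1) scale used for every change given here, but the medians of the 4 single-library differences ran from -0.08 to 1.04. A shift of all genes was therefore not larger than the spread between libraries, and with 2 libraries against 2 no exact two-sided permutation test can give less than 0.3333. For this reason centred changes, with each library set to its own median over the tested genes, are given beside the deposited ones. Genes that mark the granulocyte-monocyte progenitor were high at both times. All 15 listed were tested and their summed level was 9847 and 21180 FPKM at 0 h and 27270 and 23090 FPKM at 36 h. Of 20 lymphoid markers 10, Cd3e of T cells among them, were under 0.2 FPKM in all 4 libraries, and the 20 summed to 149.4 to 331.1 FPKM, with Igll1 the largest. Of 13 stromal and endothelial markers 10, including Col1a1, were under that level, with sums of 96.65 to 271.6 FPKM, and Pecam1 was the largest. Of 14 dendritic cell markers 9, including Siglech, were, with sums of 32.16 to 104.7 FPKM, and Bst2 was the largest.

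The 2 libraries of 36 h did not look alike. Over the 11333 tested genes of 200 bases or longer, the second 36 h library was nearest to the first 0 h library, with Pearson's r of 0.9928 between their centred values and 207 genes (1.827%) more than 2-fold apart. Between the first and the second 36 h library r was 0.9668 and 753 genes (6.644%) were more than 2-fold apart, against 446 (3.935%) between both 0 h libraries. In HMGN1-OE cultures the 36 h libraries had r of 0.9913 and only 155 genes (1.368%) that far apart. The genes that passed the test in HMGN1-OE cultures, whose libraries enter the WT test only through the spread, showed the same contrast. Of all tested genes 0.677% rose and 1.12% fell there. Of the 58 longer genes that rose, 55 were above the 0 h mean in the first WT 36 h library after centring, with a median change of 1.75, and 28 were in the second, with a median of -0.07. Of the 110 that fell, 108 were below the 0 h mean in the first library, with a median of -1.61, and 76 in the second, with a median of -0.32. Of all longer genes 50.6% were above the 0 h mean in the first library after centring and 48.5% in the second. As deposited, where these shares were 87.4% and 95.9%, 57 and 48 of the 58 were above the 0 h mean in the first and second library, and 106 and 33 of the 110 were below. What sets the second library apart, an exchanged culture or label included, was not tested. Every WT value of 36 h therefore depends on this library being what its label says, and values are given for both libraries.

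**Figure D1:**
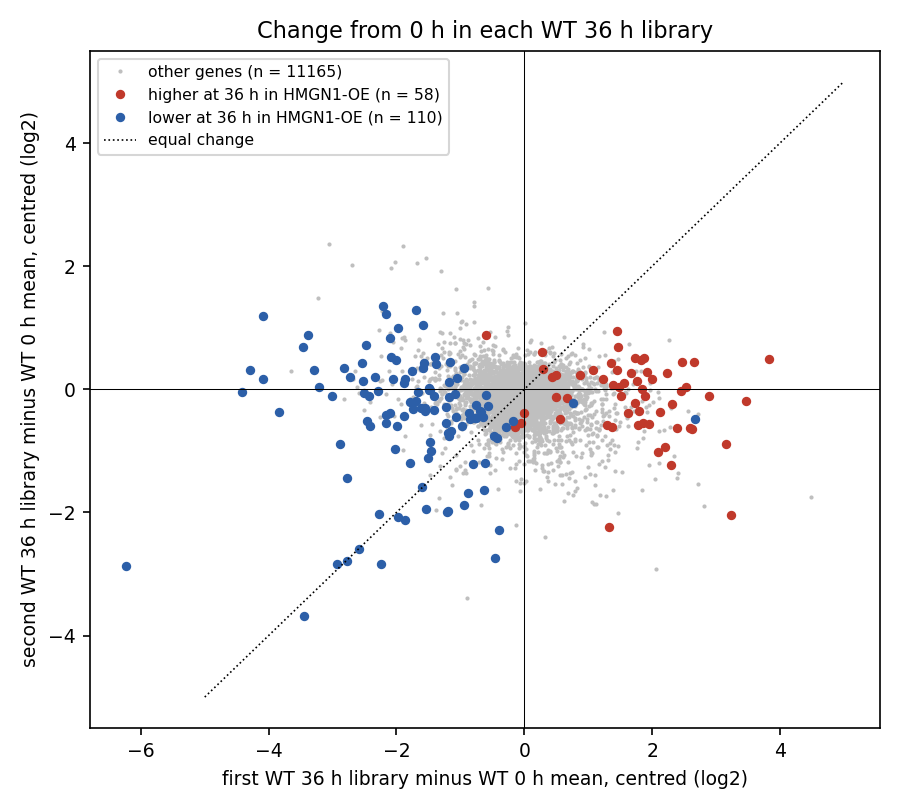
Change of each gene of 200 bases or longer from the mean of both WT 0 h libraries, centred (log2), in the first WT 36 h library (x axis) and in the second (y axis). Red and blue points are the 58 and 110 genes that rose or fell in HMGN1-OE cultures. They spread along the x axis, to medians of 1.75 and -1.61, and lie close to 0 on the y axis, apart from a group of falling genes on the dotted line of equal change.

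Between 0 and 36 h, 71 of 11516 genes (0.617%) passed limma's test at an adjusted p under 0.05, of which 41 (0.356%) rose and 30 (0.261%) fell. At an unadjusted p under 0.05 there were 378. Of the 71, 39 were loci shorter than 200 bases, most of them miRNA and snoRNA genes, and these made up 44.3% of the 88 short loci tested. Of the 11333 longer genes 29 (0.256%) passed, 17 rising and 12 falling, and 3 called genes had no length. In 36 of the 71 both libraries of 36 h lay on the same side of both libraries of 0 h, 23 above and 13 below. Over all tested genes the 36 h libraries lay wholly above those of 0 h in 25.7% and wholly below in 0.356%. After centring these shares were 14.4% and 13.9%. With every library centred on its own median, the test called 1 gene, Mir3074-1, and none of the 29 longer genes. At an unadjusted p under 0.05 there were then 352. With all libraries fitted, each longer call below was thus made on the spike-in scale only, although the changes themselves remained after centring. Stfa3 went from -3.09 to -3.57 and Tgm2 from 2.64 to 2.16, so falls grew and rises shrank. Why the calls were lost was not tested. With the spread taken from the 4 WT libraries alone 41 genes passed, 5 of the 29 among them.

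Ltf, of the late granules, and 4 stefin genes fell, and both 36 h libraries were low for each of them. Of 20 tested genes on the list of secondary and tertiary granule proteins, which also holds stefins, 3 fell and 0 rose. In 9 the 36 h libraries lay wholly below those of 0 h. Of all genes 0.261% fell and 0.356% lay wholly below. After centring 11 of the 20 lay wholly below, against 13.9%. The list holds 4 stefins, which are protease inhibitors counted here with the granule proteins. Of the 3 that fell, 2, Stfa2l1 and BC100530, are stefins and are described with their family. The third, Ltf, was thus the only call outside the stefins. The median centred change of the 20 was -1.13, and it was -0.82 in the first and -1.47 in the second 36 h library, where the medians of all genes were 0.0028 and -0.0055. Ltf, which encodes the iron-binding granule protein lactoferrin, was listed at 15.86 and 7.19 FPKM at 0 h and at 1.46 and 1.97 FPKM at 36 h. The groups did not overlap, and the log2 fold change was -2.12 ± 0.54 (SE; limma, adjusted p = 0.0162). Its centred change was -2.59 in the first and -2.60 in the second 36 h library.

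The stefin A genes encode small inhibitors of cysteine proteases of neutrophils. Stfa3 was at 12.37 and 6.85 FPKM at 0 h and at 0.19 and 0.22 FPKM at 36 h, where it was hardly above the level listed for genes without signal, about 0.1 FPKM. Its log2 fold change was -3.09 ± 0.53 (SE; limma, adjusted p = 1.35e-06), and it was the one stefin whose call held without either 36 h library. BC100530 fell from 176.1 and 81.79 FPKM to 21.29 and 25.8 FPKM, by 2.31 on the log2 scale (limma, adjusted p = 0.0216). BC117090 fell from 40.54 and 18.61 FPKM to 3.73 and 5.09 FPKM, by 2.41 on the log2 scale (limma, adjusted p = 0.00376). Stfa2l1 fell from 42.38 and 21.1 FPKM to 7.25 and 5.67 FPKM, by 2.06 on the log2 scale (limma, adjusted p = 0.0473). In each of these genes the higher of the 36 h libraries was well below the lower of the 0 h libraries. Stfa1 and Stfa2 did not pass the test, with log2 fold changes of -1.27 and -1.54, and 3 further genes of the family, 2010005H15Rik, Gm5416 and Gm5483, looked up after these values were seen, had -1.11, -0.81 and -1.67. All 9 had both 36 h libraries below both of 0 h.

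Reads could be shared within this family. In the transcripts of GENCODE vM21, 33.7% of the windows of 50 bases of BC117090, 23.8% of those of BC100530 and 16.8% of those of Stfa2l1 also occur in another of the 9 genes, but 0% of those of Stfa3 and Gm5416. The values of the first 3 are therefore uncertain where the counting divided reads between copies. Without the second 36 h library the log2 fold changes of Ltf, BC100530, BC117090, Stfa2l1 and Stfa3 were -2.25, -2.44, -2.59, -1.91 and -3.11. Without the first they were -1.98, -2.18, -2.23, -2.21 and -3.07. Only Stfa3 passed in both cases and BC117090 in the former.

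The same genes were at low levels at 36 h in HMGN1-OE cultures. Ltf went from 22.04 and 15.84 FPKM to 3.13 and 0.36 FPKM there, and Stfa3 from 18.38 and 16.55 FPKM to 2.50 and 0.15 FPKM. Of the 20 genes on the list of late granule proteins and stefins 10 fell and 0 rose in HMGN1-OE cultures. There 1.12% of all tested genes fell and 0.677% rose. Members that did not pass in WT cultures include Camp, the gene of the antimicrobial peptide cathelicidin, at 84.57 and 31.1 FPKM at 0 h and 28.13 and 19.49 FPKM at 36 h, and Ngp, at 131.8 and 53.71 FPKM and then 68.27 and 41.07 FPKM. The list was not uniform. Anxa1, which encodes the anti-inflammatory protein annexin A1, was at 322.8 and 505.1 FPKM at 0 h and 1354 and 851.2 FPKM at 36 h, and Pglyrp1, a peptidoglycan-binding granule protein, at 109.2 and 131.5 FPKM and then 308 and 240 FPKM. Neither passed the test.

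The low level at 36 h was followed by a high one. At 96 h Ltf was at 2040 and 1033 FPKM, Stfa3 at 1627 and 1210 FPKM, BC100530 at 15190 and 6380 FPKM and Stfa2l1 at 5481 and 2558 FPKM. These levels exceeded those of 0 h on the log scale by more than the spread of either pair, although the median change of all genes from 36 to 96 h was -2.21 (log2). The change from 36 to 96 h shares its 36 h libraries with the change from 0 to 36 h.

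**Figure D2:**
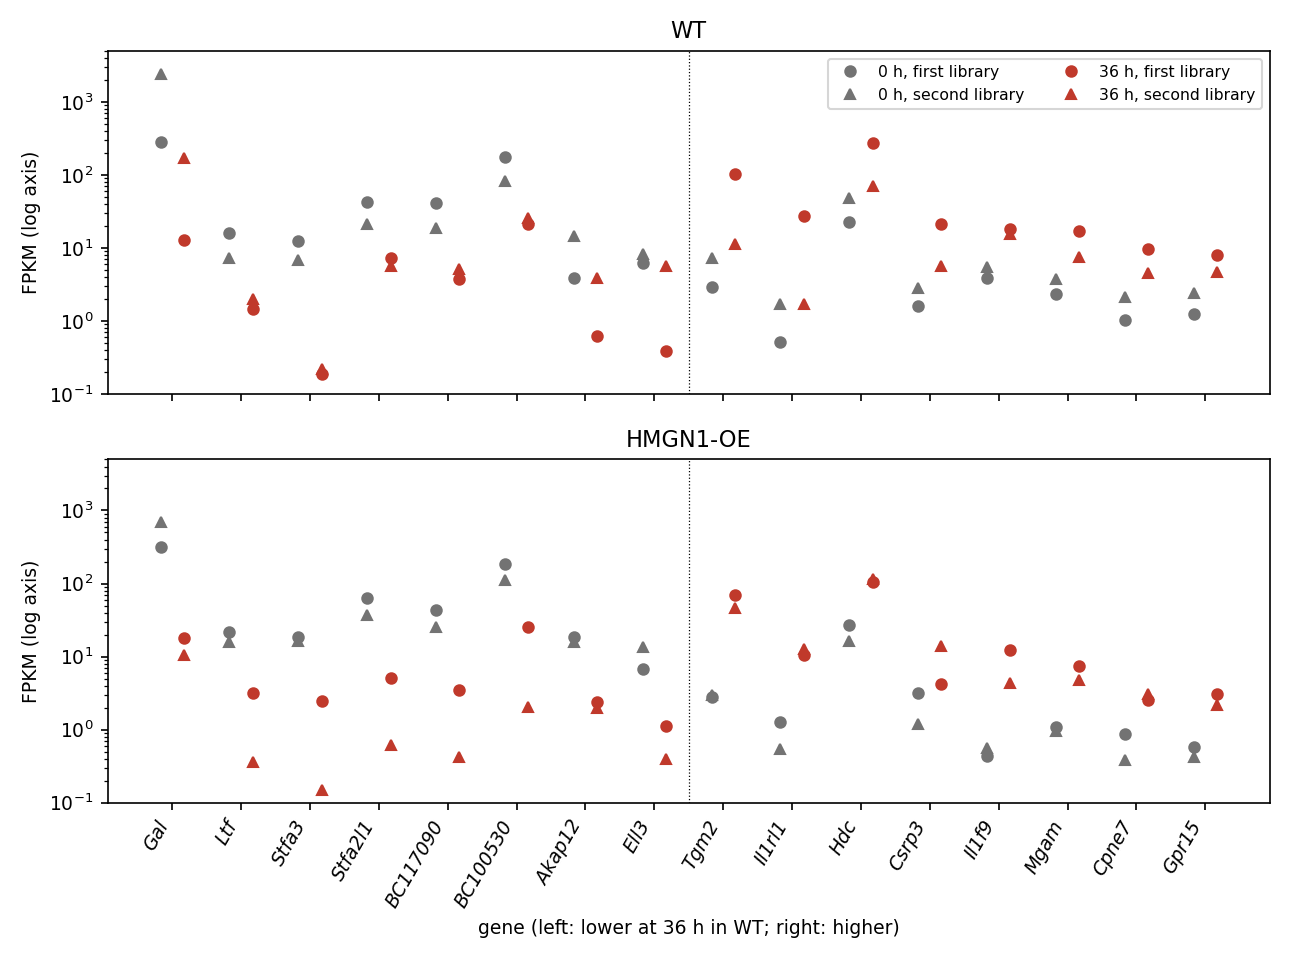
FPKM (log axis) of 16 genes in each library of WT (top) and HMGN1-OE cultures (bottom). Grey is 0 h, red 36 h, circles the first and triangles the second library. For Ltf and the stefins both red points of WT lie together below the grey ones, whereas for Tgm2, Il1rl1 and Hdc the red triangle lies close to the grey points and the red circle far above.

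The promoters of genes that moved together are shown for 3 of the falling granule and stefin genes and for 2 rising genes of basophils and mast cells, described further on. They are RefSeq sequences of build GRCm38.p6, from 250 bases before to 50 bases after the start of the gene, for Ltf (chr9:111019042-111019341 on the plus strand), Stfa3 (chr16:36455343-36455642 on the minus strand), Stfa2l1 (chr16:36156561-36156860 on the plus strand), Ms4a2 (chr19:11623670-11623969 on the minus strand) and Cd200r3 (chr16:44943428-44943727 on the plus strand). Capitals mark the letters TTNNGNAA of factors of the C/EBP family, AGATAA of GATA factors, TGANTCA of AP-1, GAGGAAG of PU.1 and TGATTNAT of HOX with PBX, on either strand.
Ltf: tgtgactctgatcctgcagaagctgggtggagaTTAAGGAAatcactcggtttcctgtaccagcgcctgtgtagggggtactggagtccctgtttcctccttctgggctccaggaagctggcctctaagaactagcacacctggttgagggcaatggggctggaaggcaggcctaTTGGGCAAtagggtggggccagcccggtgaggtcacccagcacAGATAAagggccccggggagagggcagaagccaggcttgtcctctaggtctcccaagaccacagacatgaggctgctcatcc
Stfa3: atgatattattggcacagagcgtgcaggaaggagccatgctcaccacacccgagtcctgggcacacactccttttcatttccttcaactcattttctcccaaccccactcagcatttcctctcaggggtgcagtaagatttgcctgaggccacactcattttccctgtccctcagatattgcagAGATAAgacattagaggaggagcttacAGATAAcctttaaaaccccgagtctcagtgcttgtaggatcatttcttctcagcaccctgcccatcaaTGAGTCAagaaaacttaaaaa
Stfa2l1: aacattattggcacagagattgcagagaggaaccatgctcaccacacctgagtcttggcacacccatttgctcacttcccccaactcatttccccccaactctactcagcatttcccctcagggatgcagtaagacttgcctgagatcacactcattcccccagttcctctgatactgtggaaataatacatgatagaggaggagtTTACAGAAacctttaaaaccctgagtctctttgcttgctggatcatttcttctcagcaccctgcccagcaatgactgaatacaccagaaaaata
Ms4a2: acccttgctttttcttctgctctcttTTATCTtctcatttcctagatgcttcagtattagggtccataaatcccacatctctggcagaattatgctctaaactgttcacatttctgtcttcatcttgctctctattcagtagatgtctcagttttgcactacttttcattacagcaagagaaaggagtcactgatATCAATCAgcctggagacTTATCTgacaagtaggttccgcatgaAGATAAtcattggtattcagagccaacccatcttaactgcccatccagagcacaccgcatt
Cd200r3: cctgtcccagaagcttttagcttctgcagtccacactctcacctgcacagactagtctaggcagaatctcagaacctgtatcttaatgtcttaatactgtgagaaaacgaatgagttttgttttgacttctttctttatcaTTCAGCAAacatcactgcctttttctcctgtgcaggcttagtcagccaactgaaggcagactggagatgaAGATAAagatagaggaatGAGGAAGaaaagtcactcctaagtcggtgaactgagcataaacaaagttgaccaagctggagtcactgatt
Of the longer called genes, 13 rising and 8 falling had a promoter in the table, as had 9006 of the longer tested genes. TTNNGNAA was found in 3 of the 8 falling and 8 of the 13 rising genes and in 36.3% of the 9006. AGATAA was found in 2 of 8 and 5 of 13, against 7.79%, and the 5 were Il1rl1, Ms4a2, Il1f9, Mgam and Cd200r3. GAGGAAG was found in 0 of 8 and 3 of 13, against 16.3%. TGANTCA was found in 1 of 8 and 1 of 13, against 6.14%, and TGATTNAT in 0 of 8 and 1 of 13, against 1.62%. CACGTG, bound by Myc with Max, was found in 0 of 8 and 1 of 13, against 12.1%, and the palindromic estrogen response element in none of them and in 1 of the 9006. A match describes letters in this window only.

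Gal, which encodes the neuropeptide galanin, had the largest fall of any longer gene that passed. It was at 281.7 and 2413 FPKM at 0 h and at 12.95 and 171.7 FPKM at 36 h, and its log2 fold change was -4.07 ± 0.56 (SE; limma, adjusted p = 1.28e-10). The groups did not overlap, but the libraries of each time were far apart, with the second the higher at both. In HMGN1-OE cultures Gal was at 312.9 and 701 FPKM at 0 h and 18.06 and 10.36 FPKM at 36 h. The fall was -5.89 without the second WT 36 h library and -2.26 without the first (limma, adjusted p = 0.279), so the call rested on the first.

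Of the other falling genes Akap12, Ell3 and Gpr12 rested on the first 36 h library as well. Akap12, which encodes a scaffold protein that anchors protein kinase A, was at 3.92 and 14.38 FPKM at 0 h and at 0.61 and 3.90 FPKM at 36 h (by limma -1.63 on the log2 scale, at an adjusted p of 0.00618). Ell3, which encodes an elongation factor of RNA polymerase II, was at 6.23 and 8.13 FPKM and then at 0.39 and 5.73 FPKM (by limma -1.41 on the log2 scale, at an adjusted p of 0.0291). In both the second 36 h library lay just below the range of 0 h. Gm5512 was the reverse, at 5.61 and 9.45 FPKM at 0 h and 4.66 and 0.22 FPKM at 36 h. Gpr12, an orphan receptor, Amd1, which encodes an enzyme of polyamine synthesis, and Pde5a, a phosphodiesterase of cyclic GMP, passed with overlapping libraries. Gpr12 was at 35.78 and 42.53 FPKM at 0 h, at 1.37 FPKM in the first 36 h library and at 58.54 FPKM in the second. Amd1 was at 0.11 and 8.61 FPKM at 0 h and at 0.14 and 0.15 FPKM at 36 h, and Pde5a at 0.60 and 11.64 FPKM and then at 1.17 and 0.76 FPKM. For both only the second 0 h library was high. Amd1 passed without either 36 h library, and Pde5a only without the first.

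Of the markers of basophils and mast cells some rose, mainly in the first 36 h library. Of 10 tested markers 3 rose, against 0.356% of all genes, and 0 fell, and their median centred change was 0.96, made up of 1.48 in the first 36 h library and -0.07 in the second. Hdc, which encodes the histidine decarboxylase that makes histamine, was at 22.85 and 47.66 FPKM at 0 h and at 271.1 and 70.16 FPKM at 36 h. The groups did not overlap, and the log2 fold change was 2.03 ± 0.55 (SE; limma, adjusted p = 0.0402). Ms4a2, the beta chain of the high-affinity IgE receptor, was at 2.89 and 10.5 FPKM and then at 61.98 and 8.52 FPKM. Cd200r3, an activating receptor of basophils and mast cells, was at 0.32 and 0.89 FPKM and then at 16.84 and 0.31 FPKM. Both passed (limma, adjusted p = 0.0103 and 0.00703), but in both the second 36 h library lay within or below the range of 0 h.

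The whole list was highest in the first 36 h library. The summed level of its 16 genes was 460.3 and 770.5 FPKM at 0 h and 3030 and 961.3 FPKM at 36 h. Its most abundant member was Cpa3, which encodes carboxypeptidase A3, at 255.1 and 539.7 FPKM and then at 2013 and 553.9 FPKM. The mast cell proteases Mcpt1, Mcpt4 and Tpsab1, with Mrgprb1 and Gzmb, were under 0.2 FPKM in all 4 libraries. Whether the share of such cells differed between the cultures was not tested. In HMGN1-OE cultures the same 3 genes rose, against 0.677% of all genes, with Hdc at 27.2 and 16.53 FPKM at 0 h and 105.2 and 115.3 FPKM at 36 h, and both 36 h libraries were high there.

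Il1rl1 and Tgm2 had the largest rises among longer genes with a length. Tgm2, which encodes the protein-crosslinking tissue transglutaminase, was at 2.95 and 7.36 FPKM at 0 h and at 102.5 and 11.46 FPKM at 36 h (by limma 2.64 ± 0.51, SE on the log2 scale, at an adjusted p of 6.22e-05). Il1rl1, the receptor for interleukin 33, was at 0.51 and 1.69 FPKM and then at 27.34 and 1.72 FPKM (by limma 2.12 ± 0.41, SE on the log2 scale, at an adjusted p of 8.67e-05). In neither did the groups overlap, but the second 36 h library of Il1rl1 was only just above the higher 0 h library. Without the first 36 h library the changes were 1.12 for Tgm2 and 0.43 for Il1rl1 (limma, adjusted p = 0.569 for each), and without the second 4.17 and 3.81, so both calls rested on the first. In HMGN1-OE cultures Tgm2 was at 2.77 and 2.94 FPKM at 0 h and at 68.57 and 46.17 FPKM at 36 h, and Il1rl1 at 1.26 and 0.54 FPKM and then at 10.54 and 12.79 FPKM. Each pair there was closer together than the change between the times.

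A few genes rose in both 36 h libraries. Pira4, a paired immunoglobulin-like receptor with close paralogs and no length here, was at 0.50 and 0.20 FPKM at 0 h and at 7.72 and 6.20 FPKM at 36 h, with a log2 fold change of 2.56 ± 0.40 (SE; limma, adjusted p = 3.61e-08). Il1f9, which encodes the cytokine interleukin 36 gamma, was at 3.90 and 5.43 FPKM and then at 18.41 and 15.64 FPKM (by limma 1.68 on the log2 scale, at an adjusted p of 0.0479). In these 2 the 36 h libraries were close together and at least 2-fold above 0 h. Gm4070 was at 9.29 and 8.95 FPKM and then at 60.79 and 26.09 FPKM. Mgam, the starch-digesting maltase-glucoamylase, was at 2.35 and 3.74 FPKM and then at 16.81 and 7.52 FPKM. Cpne7, a calcium-binding copine, was at 1.03 and 2.11 FPKM and then at 9.57 and 4.50 FPKM. Gpr15, a chemoattractant receptor, was at 1.26 and 2.45 FPKM and then at 8.0 and 4.75 FPKM. Each of these 4 was higher in both 36 h libraries and highest in the first.

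The remaining longer risers were high in the first 36 h library and closer to the 0 h levels in the second, with no sharp line to the genes above. In the second library Csrp3 was 1.06 above the 0 h mean on the log2 scale, against 1.04 for Gpr15. Csrp3, a LIM protein best known from muscle, was at 1.61 and 2.83 FPKM and then at 21.2 and 5.59 FPKM. Akr1c18, a steroid dehydrogenase, was at 3.97 and 5.78 FPKM and then at 41.51 and 8.18 FPKM. Prg3, a major basic protein of eosinophil granules, was at 0.71 and 0.43 FPKM and then at 10.7 and 0.87 FPKM, and Gm13546 at 0.62 and 3.02 FPKM and then at 9.92 and 3.30 FPKM. Alox5, the 5-lipoxygenase of leukotriene synthesis, split both times, with 0.26 and 14.1 FPKM at 0 h and 123 and 0.99 FPKM at 36 h. All 17 longer risers were higher in the first than in the second 36 h library, and 9 of the 12 longer fallers were lower in the first.

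Of the primary granule genes 0 of 13 passed in either direction. The first listed were Mpo, which encodes myeloperoxidase, at 2107 and 4406 FPKM at 0 h and 7066 and 5507 FPKM at 36 h, and Elane, neutrophil elastase, at 408.8 and 867.4 FPKM and then 2864 and 1109 FPKM. Prtn3, proteinase 3, was at 977.8 and 2516 FPKM and then 4647 and 2699 FPKM, and Ctsg, cathepsin G, at 3862 and 7413 FPKM and then 6784 and 7983 FPKM. In 7 of 13 the 36 h libraries lay wholly above those of 0 h, and in 6 of 13 after centring, against 25.7% and 14.4% of all genes. The median centred change was 0.39, with all 13 above 0 in the first 36 h library (median 0.85) and 7 of 13 in the second (median 0.17). In HMGN1-OE cultures 4 of the 13 rose and none fell, against 0.677% and 1.12% of all genes.

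Genes of stem cells and progenitors differed in direction between the 36 h libraries, and 0 of 26 passed. Their median centred change was -0.70 in the first and 0.21 in the second. Cd34, a surface sialomucin of progenitors, was at 493 and 604.2 FPKM at 0 h and at 264.3 and 1105 FPKM at 36 h, Kit, the receptor of stem cell factor, at 24.99 and 47.63 FPKM and then at 71.14 and 63.34 FPKM, Flt3, a receptor tyrosine kinase of early progenitors, at 47.45 and 67.32 FPKM and then at 4.10 and 67.02 FPKM, and Myb, a transcription factor of progenitors, at 248.4 and 469.6 FPKM and then at 475.9 and 546.4 FPKM. As deposited, the second 36 h library was thus at or above the level of 0 h for all 4, and the first was lower for Cd34 and Flt3. Of 17 tested Hox genes and cofactors none passed, and the medians were -0.59 and 0.22. Hoxa9, named after its values were seen, was at 2.99 and 0.23 FPKM at 0 h and at 0.16 and 7.06 FPKM at 36 h. At both times 1 library had Hoxa9 and the other was near the level without signal.

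Transcription factors of the myeloid line showed no call among 24. The genes of the C/EBP family that open the list were Cebpa, a driver of granulocyte commitment, at 119.5 and 158.2 FPKM at 0 h and 177.8 and 218 FPKM at 36 h, Cebpb, linked to emergency granulopoiesis, at 23.61 and 57.01 FPKM and then 68.34 and 41.72 FPKM, Cebpd at 7.67 and 22.82 FPKM and then 27.22 and 13.86 FPKM, and Cebpe, needed for secondary granules, at 43.19 and 35.68 FPKM and then 95.35 and 102.2 FPKM. Of these, Cebpe had the most even pairs, with a centred change of 0.83. In the other lists of cell function 0 or 1 gene passed. The single calls were Tgm2 among 15 estrogen-responsive genes and Il1rl1 among 20 cytokine receptors. The others were Ms4a2 among 24 Fc receptors and lectins and Alox5 among 14 genes of lipid mediators. All 4, described above, were rises, and 0.356% of all genes rose. The libraries of Ms4a2 and Alox5 overlapped.

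Genes of growth lay near the median of all genes. None of 37 genes of DNA replication, 34 of mitosis, 30 of ribosome biogenesis or 11 of the Myc, Max and Mxd network passed, and their median centred changes were 0.08, 0.05, 0.05 and 0.03. In the single 36 h libraries these medians lay between -0.01 and 0.10. Mki67, a marker of cycling cells, was at 73.12 and 157.8 FPKM at 0 h and at 158.2 and 178.9 FPKM at 36 h, and Mcm2, a subunit of the replicative helicase, at 83.72 and 159.4 FPKM and then at 168.7 and 176.3 FPKM. None passed either among 8 S100 proteins, 12 chemoattractant receptors, 23 adhesion molecules, 8 NADPH oxidase subunits, 17 Toll-like receptors and adaptors, 19 cytokines and chemokines, 33 immediate early genes, 19 G1 cyclins, kinases and CDK inhibitors, 31 genes of cholesterol and fatty acid synthesis, 30 of glycolysis, 22 interferon-stimulated genes, 16 of heme and iron, 17 of the Bcl2 family and 30 of stress responses.

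**Figure D3:**
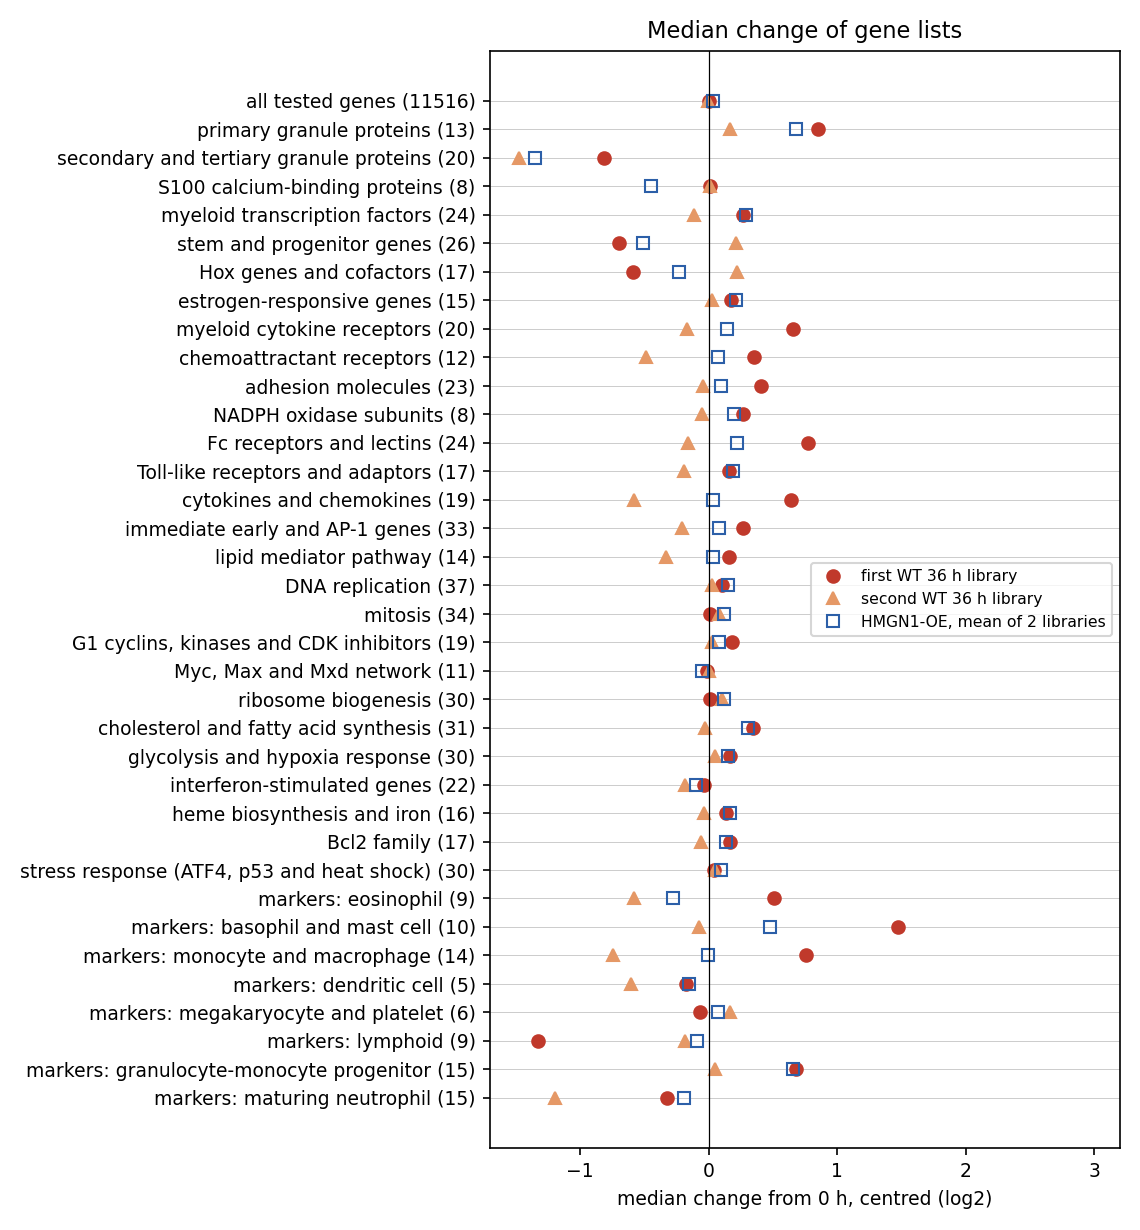
Median centred change from 0 h (log2) of each gene list with 5 or more tested genes (number in parentheses), in the first (red circles) and second (orange triangles) WT 36 h library and in HMGN1-OE cultures (open squares). The list of secondary and tertiary granule proteins, which also holds stefins, lies at -0.82 and -1.47 in the WT libraries. Lists of DNA replication, mitosis and ribosome biogenesis lie near 0 in both, whereas basophil and mast cell markers lie at 1.48 and -0.07.

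Markers of other cell types differed between the libraries of one time. The summed level of 19 monocyte and macrophage markers was 324.6 and 1373 FPKM at 0 h and 2860 and 632.6 FPKM at 36 h. That of 11 eosinophil markers was 18.2 and 9.42 FPKM and then 75.3 and 17.4 FPKM. Of 9 tested eosinophil markers 1, Prg3, rose, against 0.356% of all genes. Erythroid markers were the reverse, with 609.3 and 584.9 FPKM at 0 h and 173.4 and 1332 FPKM at 36 h, and Car2, carbonic anhydrase, was the largest of them. None of the 14 monocyte, 5 dendritic, 4 erythroid, 6 megakaryocyte, 9 lymphoid and 2 stromal or endothelial markers tested passed. Of 15 markers of maturing neutrophils 1, Ltf, fell, against 0.261% of all genes. The part of other cell types in the changes above was not tested.

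Without the second 36 h library the test called 100 longer genes as rising and 68 as falling, and 23 of the 29 longer genes were among them. The lone 36 h library is then assumed to vary like the other groups. With each library centred as well, 11 of the 29 were called. As deposited, the second library lay below both 0 h libraries in 6 of the 68 falling genes, against 0.838% of all longer genes, and above both in 31 of the 100 rising genes, against 79.1%. After centring it lay below both in 14 of the 68, against 31.7%, and above both in 15 of the 100, against 28.7%, while in 63 of the 100 it lay below both. The comparison with all genes thus turned with the scale for the falling genes. The same 0 h libraries also entered the choice of these genes, so the shares of all genes are no neutral reference. In HMGN1-OE cultures 63 of the 68 had a change of the same sign and 42 fell, while 95 of the 100 had the same sign and 30 rose, against 1.12% and 0.677% of all tested genes that fell and rose there. Examples chosen after these values were seen are Flt3, given above, Dntt, which encodes the terminal transferase of lymphoid progenitors, at 15.89 and 4.60 FPKM at 0 h and 0.11 and 23.08 FPKM at 36 h, and Ly6c2, which encodes a surface antigen of monocytes and neutrophils, at 92.3 and 845.5 FPKM and then 2179 and 274.7 FPKM. In HMGN1-OE cultures Flt3 was at 82.23 and 64.55 FPKM and then at 7.53 and 9.31 FPKM, Dntt at 68.08 and 47.4 FPKM and then at 2.58 and 2.26 FPKM, and Ly6c2 at 10.95 and 8.43 FPKM and then at 158.4 and 117.2 FPKM. For these 3 genes the first WT 36 h library was on the side of both HMGN1-OE libraries of 36 h. Without the first 36 h library 28 longer genes rose and 7 fell, and 4 of the 29 were among them, Stfa3, Amd1, Pde5a and Gm5512, all of which fell. No call of a longer riser thus held without the first 36 h library.

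The longer genes called in WT cultures mostly had the same sign in HMGN1-OE cultures, and the short loci often did not. Of the 29, 28 had a change of the same sign there and 24 passed, all with the same sign. Of all tested genes 61.8% had a change above 0 there and 1.8% passed. Of the 17 risers 16 had both HMGN1-OE libraries of 36 h above both of 0 h, against 14.3% of all genes, and of the 12 fallers 11 had them below, against 9.47%. The exceptions were Alox5, at 0.37 and 1.28 FPKM and then 4.25 and 1.23 FPKM, and Gm5512, whose sign was opposite. The 5 that did not pass there were Gm4070, Alox5, Prg3, Pde5a and Gm5512. Of the 39 short loci 15 had the same sign, and of 18 that passed in HMGN1-OE cultures 10 had the opposite sign. By the interaction term, 58 genes (0.504%) changed differently in the 2 genotypes, 36 of them short loci. Among the 29 longer genes 1, Gm5512, did. Few of the 58 calls remained with centring, after quantile normalization or without the trend.

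**Figure D4:**
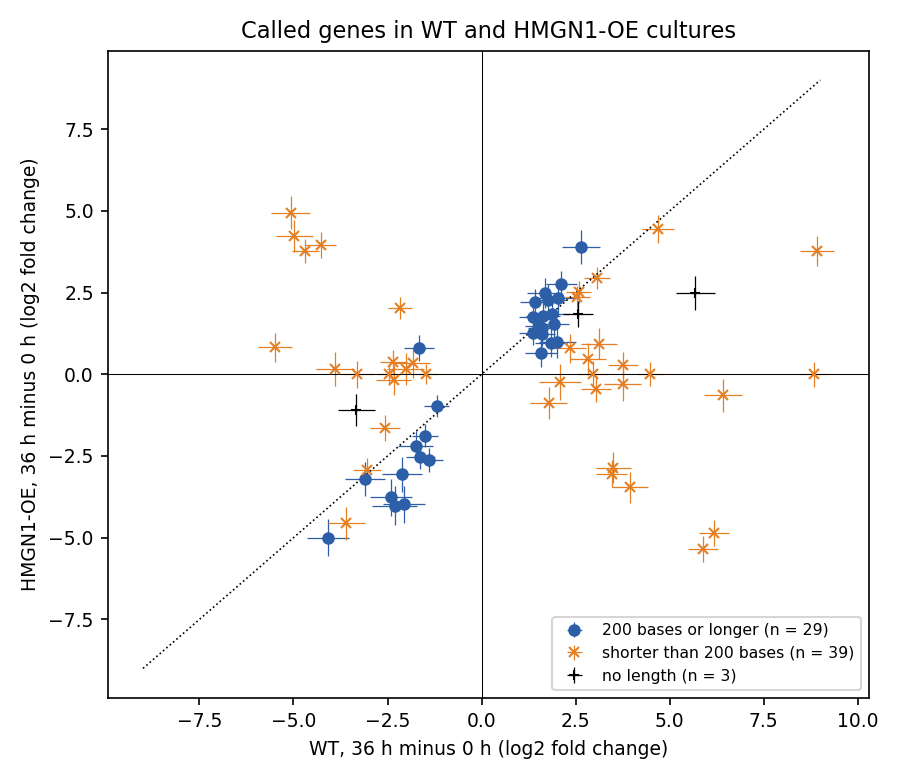
Log2 fold change from 0 to 36 h with its standard error in WT (x axis) and HMGN1-OE cultures (y axis) for the 71 genes called in WT. The 29 genes of 200 bases or longer (blue) lie in the quadrants of equal sign with 1 exception, and the 39 shorter loci (orange) lie in all 4 quadrants, with 15 of equal sign.

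The short loci had the largest fold changes and the least even libraries. Their exon lengths were 71 to 196 bases. In 33 of the 39 called loci 1 library was under 0.2 FPKM while the other library of the same time was at 1 FPKM or more, as in 46 of all 88 short loci tested and 87 of the 11333 longer genes. By their names, the 39 and the loci without a length included 24 miRNA genes, 14 snoRNA genes and 2 genes of minor spliceosomal RNAs, although the annotation calls Mir3096 a snoRNA. For 21 of the 24 the RefSeq table holds a mature miRNA, and no seed was shared by 2 of them. The levels are those of the hairpin loci, and mature miRNAs were not measured separately. For reference, the mature sequences of the 3 loci with signal in both libraries of one time and in neither of the other are given. The seed, bases 2 to 8, is in capitals.
mmu-miR-19b-1-5p: aGUUUUGCagguuugcauccagc
mmu-miR-19b-3p: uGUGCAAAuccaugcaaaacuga
mmu-miR-3074-5p: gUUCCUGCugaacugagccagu
mmu-miR-7a-5p: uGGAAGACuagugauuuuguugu
mmu-miR-7a-1-3p: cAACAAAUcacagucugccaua
Mir19b-1, a member of the growth-promoting miR-17-92 cluster, was at 0.09 and 0.12 FPKM at 0 h and at 517.3 and 555.1 FPKM at 36 h (by limma 8.93 on the log2 scale, at an adjusted p of 2.00e-83). Mir3074-1 was at 0.09 and 0.10 FPKM and then at 674.3 and 364.7 FPKM. Both went from no signal in either library to signal in both. Mir7-1 was at 27.21 and 92.39 FPKM at 0 h and at 0.14 and 0.15 FPKM at 36 h, and so went the other way. In HMGN1-OE cultures Mir19b-1 had signal in the first 36 h library only, at 203.8 FPKM, and Mir3074-1 had none at either time. Mir7-1 had it there in the second library of each time, at 22.8 FPKM at 0 h and 73.51 FPKM at 36 h.

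The host transcripts, looked up after these values were seen, differed far less between the times. Mir17hg, the transcript of the miR-17-92 cluster, was at 33.67 and 59.28 FPKM at 0 h and at 67.04 and 94.42 FPKM at 36 h and did not pass. Within the cluster Mir17, Mir18, Mir19a and Mir92-1 were without signal in all 4 libraries, and Mir20a was at 199.4 FPKM in the second 36 h library only. Hnrnpk, the host of Mir7-1, was at 511.1 and 970.6 FPKM and then at 920.5 and 1160 FPKM, against the fall of Mir7-1. Mcm7, the host of Mir25, was at 183.7 and 324.2 FPKM and then at 331.6 and 406 FPKM, while Mir25 was at 245 and 852 FPKM and then at 0.12 and 1269 FPKM. Mir25 was thus without signal in 1 of the 36 h libraries, although its host was high in both.

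Among the other short loci whose libraries did not overlap, Snora52 was the only one with signal in all 4 libraries, at 48.44 and 85.19 FPKM at 0 h and 297 and 252.2 FPKM at 36 h (by limma 2.07 on the log2 scale, at an adjusted p of 0.039). Snora44, Snora78, Mir27a, Mir686, Mir692-1 and Rnu11 rose as well, with log2 fold changes of 3.75, 2.35, 3.94, 3.12, 2.96 and 3.50, as did Mir3096b, without a length, with 5.68. Snora74a, Mir3062 and Gm12238 fell by 2.34, 2.46 and 2.57 on the log2 scale. Mir3062 had signal in the first 0 h library only, and Gm12238 in all but the second 36 h library, so that its change was -0.52 without that library and -4.61 without the first. Mir27a and Mir686 had signal in the first 36 h library only. In Snora44, Snora78, Mir692-1, Rnu11 and Mir3096b the second 0 h library was the one under 0.2 FPKM. The overlapping short loci with the largest changes were Mir343, Snord1b and Mir5133, each with signal in the second 36 h library only, and Mir677, Snord83b and Mir678, of which Snord83b and Mir678 had signal in 1 library of 0 h only.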

How the data were processed

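The authors counted cells, extracted RNA with TRIzol, added ERCC spike-in RNAs, prepared TruSeq v2 libraries, sequenced them and aligned the reads with Bowtie, and normalized the matrix by loess on the spike-ins. The submitters' processing notes name mm9, HISAT and Cufflinks 2.0.0, and how these relate to Bowtie is not given in the sources used here. The table deposited by the authors holds such normalized FPKM, 1 per gene and library, for 23309 genes and 92 spike-in rows. No step worth 1 read could be found among the low values, so the depth is unknown and no counting error is given.

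Columns were assigned to genotype and time by name. Libraries are called first and second in column order. Values were taken as log2(FPKM + 1), genes at 1 FPKM or more in at least 2 of 12 libraries were kept, and limma 3.58.1 (R 4.3.3; lmFit, eBayes with trend, 6 group means, two-sided, Benjamini-Hochberg) was fitted to all 12 libraries, with calls at an adjusted p under 0.05. The prior degrees of freedom were infinite, so a gene's own spread does not enter its p or SE. Hence library values and overlap are printed for each gene. Genes were named if called with no overlap of the libraries, with the 3 largest overlapping calls in each direction and members of fixed lists, by size of change or, where none was called, the first 4 listed. The members and lists were chosen with earlier results of these data known. Exon lengths (99.18% of the tested genes) came from GENCODE vM21, and miRNA and promoter sequences from RefSeq (GRCm38.p6). No coordinates were taken for the deposited values, whose build differs. The fit was checked on simulated data. Alternatives covered the pseudocount, filters, scaling, libraries fitted, moderation, length, column digits as blocks and each library left out.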

Additional observations from a re-analysis of the deposited data

Results flagged for a closer look

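Among the named genes, 17 changed differently in HMGN1-OE than in WT cultures by the interaction term of limma (adjusted p from 4.48e-83 to 0.00457). Of these, 16 are short RNA loci or lack a length. The named genes were chosen by their WT change, and the same WT libraries enter this term. Its p does not draw on a gene's own spread. Among the libraries compared, Mir5133 had signal only in the second WT 36 h (3814 FPKM) and first HMGN1-OE 0 h (1808 FPKM). Mir678 had it only in the second WT 0 h (735.6 FPKM) and first HMGN1-OE 36 h (201.6 FPKM). Mir3074-1 had signal in both WT 36 h libraries and in none of HMGN1-OE. The difference, HMGN1-OE minus WT on the log2 scale, was -11.23 for Mir5133, -11.05 for Snord1b, -8.83 for Mir3074-1, -7.40 for Mir27a, -7.06 for Mir343, -6.36 for Rnu11, -5.16 for Mir19b-1, -4.06 for Snora44, -3.19 for Mir3096b and -2.96 for Mir692-1. It was 2.46 for Mir3062, 2.73 for Snora74a, 6.31 for Mir7-1, 8.44 for Mir678, 9.20 for Snord83b and 10.03 for Mir677. Gm5512 was the longer gene among them, with a difference of 2.47 (limma, adjusted p = 0.00331), from levels of 5.61 and 9.45 FPKM and then 4.66 and 0.22 FPKM in WT and of 7.92 and 0.96 FPKM and then 5.42 and 7.34 FPKM in HMGN1-OE cultures. The low library was the second of 36 h in WT and the second of 0 h in HMGN1-OE cultures.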

How the results depend on the processing

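The 71 calls of the WT comparison depended on most choices. Their number was 6 without a filter on low values, 47 at a mean of at least 5 FPKM, 36 with the filter over the 4 WT libraries, 1 with each library centred, 1 after quantile normalization, 41 with the 4 and 44 with the 6 WT libraries alone, 4 without the trend, 11 with robust moderation and 1 without moderation. With single libraries left out it ran from 47 to 214, the lowest without the first 0 h library, and it was 126 without the second 0 h library. Chosen after seeing the data, exon lengths of at least 200 bases gave 15 calls, and with centring 0. Without the second 36 h library there were 214, 164 with centring and 218 with centring and that length. Pseudocounts of 0.1 and 0.01 kept the number within 1.5 times, but only 16 and 12 of the 29 longer genes remained called. In HMGN1-OE cultures 207 calls became 15 with centring, 35 after quantile normalization and 58 without the trend, and 103 to 240 with libraries left out. The 58 calls of the interaction became 2 with centring, with quantile normalization or without the trend, 12 with the length limit, and 28 to 162 with libraries left out. The median change of all genes, 0.47, was 0.0028 to 0.904 with WT libraries left out, alone or with centring. Of the 42 named genes, 5 changed sign under 1 setting each. Called genes printed above but outside the 42 could turn as well. Without the first 36 h library Alox5 was at -1.13 against 1.85, and Gpr12 at 0.57 against -1.75. Cd200r3 was then at -0.27 against 1.61, and Mir25 at 1.47 against -3.60. With libraries left out, Mir343 ran from -0.33 to 12.83, Snord1b from -0.33 to 12.35 and Mir5133 from -0.33 to 11.76, each negative without the second 36 h library after centring. Mir677 ran from -11.07 to 0.58, positive without the first 36 h library, and Mir678 from -9.38 to 0.019, positive without the second 0 h library. A library left alone in its group is assumed to vary like the other groups. Why the counts moved was not tested. The 0 and 1 that end the column names do not match the numbering of replicates in the titles, and no source says that they pair libraries. With the column digit as a replicate block the WT comparison gave 39 calls, and with the digits crossed 72. Deviations from the group means correlated at -0.57 between libraries of 0 and 36 h with the same digit, over 9242 genes. Depth is unknown, so no limit from counting can be given.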

Other observations

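Over all tested genes, the interaction term called 20 genes of 200 bases or longer, of which 2, Gm5512 and Gm9846, changed more positively in HMGN1-OE than in WT cultures. Values are given for 4 of the other 18. Dntt, which encodes the terminal transferase of lymphoid progenitors, fell by 4.08 on the log2 scale in HMGN1-OE cultures, and its change in WT cultures was -0.91. Vpreb2, a part of the surrogate light chain of early B cells, was at 1.62 and 2.36 FPKM at 0 h and at 0.12 and 2.67 FPKM at 36 h in WT cultures, and at 8.77 and 9.20 FPKM and then at 1.13 and 0.71 FPKM in HMGN1-OE cultures. Prg2, the major basic protein of eosinophils, was at 9.88 and 2.54 FPKM and then at 49.22 and 5.80 FPKM in WT cultures, and at 19.83 and 12.11 FPKM and then at 5.30 and 1.99 FPKM in HMGN1-OE cultures. S100g, a calcium-binding protein, was at 71.67 and 25.57 FPKM and then at 1.84 and 82.5 FPKM in WT cultures, and at 416.2 and 498.5 FPKM and then at 23.32 and 18.17 FPKM in HMGN1-OE cultures. For Dntt, Vpreb2 and S100g the first WT 36 h library was low, like both of HMGN1-OE, and the second was not. The part of the second library in these differences was not tested. These genes were chosen after their values were seen.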
